A study of Drosophila melanogaster with 8 samples.

Results

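The response of sorted fly brain cells to social housing was compared between control flies and flies expressing dTip60E431Q, probe set by probe set, as the genotype by housing interaction. The interaction was the log2 difference between housing in an enriched environment (EE) and isolation (ISO) in dTip60E431Q flies, minus the same difference in control flies. A value above 0 means that EE minus ISO was larger in dTip60E431Q, and a value below 0 that it was smaller or turned downwards there. All 8 arrays of the series entered, 2 for each of the 4 groups, and all 18769 probe sets other than the Affymetrix controls were tested. Every interacting probe set was then described by the group, or the pair of groups, that stood apart from the rest.

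Control flies carried UAS-mCD8-GFP alone and dTip60E431Q flies carried UAS-mCD8-GFP with UAS-dTip60E431Q, and in both genotypes the OK107-GAL4 driver switched the transgenes on. Newly eclosed flies spent 5 days either in a vial of 30 males and females (EE) or alone (ISO). The labels give an age of 5 days for 7 arrays and of 6 days for dTip60E431Q ISO replicate 2. The arrays measured RNA of GFP-positive cells sorted from pooled brains of both sexes, and OK107-GAL4 also acts outside the mushroom body, in the pars intercerebralis, the suboesophageal ganglion and the optic lobes. Whether the pair of arrays in each group represents different fly pools is not stated, so p-values reflect only the spread between arrays, which may be technical.

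Tip60 is the acetyltransferase of a chromatin complex that adds acetyl groups to histones and exchanges histone variants, and dTip60E431Q is a form without histone acetyltransferase activity that acts as a dominant negative. The mushroom body, built of Kenyon neurons, is the olfactory learning centre of the fly. An interaction has more than one shape. A gene can respond to housing in opposite directions in the genotypes, respond in one genotype alone, or differ in only 1 of the 4 conditions, and the interaction value by itself does not tell these apart.

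The signal of Tip60 in the arrays of control ISO, control EE, dTip60E431Q ISO and dTip60E431Q EE, in that order, was 8.41 and 8.07, 8.18 and 8.09, 9.64 and 9.64, and 9.88 and 10.14. It was higher in all 4 dTip60E431Q arrays, and its interaction of 0.47 was not called (limma adjusted p = 0.505). Array medians lay between 6.41 and 6.5 on the deposited log2 scale. The neuronal gene elav gave 11.33 to 11.70, the Kenyon cell transcription factor gene ey 7.35 to 8.06, and repo, a marker of glia, 10.10 to 10.29, so glial RNA was present in every array. Arrays within a group differed with an SD over probe sets of 0.183 in dTip60E431Q ISO and of 0.358 to 0.479 elsewhere.

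A probe set was called at an adjusted p under 0.05, from limma with Benjamini-Hochberg adjustment over all probe sets, and a fold of at least 1.3. There were 126 calls (0.671% of those tested), of which 118 lay below 0 (0.629%) and 8 above (0.0426%). At an unadjusted p under 0.05 with the same fold there were 1913 (10.2%), with 974 below 0 (5.19%) and 939 above (5%). With each of 11982 genes represented by the probe set of highest mean signal, 106 genes were called below 0 and 3 above (0.91% in all), and 809 lay below 0 and 426 above at the unadjusted threshold (10.3%). The near-equal split at that threshold therefore held over probe sets and not over genes. The median interaction of all genes was -0.01.

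A group was taken to stand apart when the gap between its mean and the nearest other mean was wider than the range of the other 3 means, and both its arrays lay outside the other 6. The second shape was a crossed one, in which all 4 arrays of control EE and dTip60E431Q ISO lay on one side of all 4 arrays of control ISO and dTip60E431Q EE. It was given only where no single group stood apart. Each shape fixes the sign of the interaction, and the crossed shape also fixes the sign of EE minus ISO in each genotype. The counts by shape are therefore a description with no test. Of the 126 calls, 66 were crossed with control EE and dTip60E431Q ISO high and 47 had dTip60E431Q ISO alone high. Both shapes give an interaction below 0 and together they made up 113 of the 118 calls in that direction. The remaining 13 calls were divided among 5 crossed the other way, 5 with control ISO apart and 3 with control EE apart, as drawn in the counts by shape. No call had dTip60E431Q EE alone apart.

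**Figure D1:**
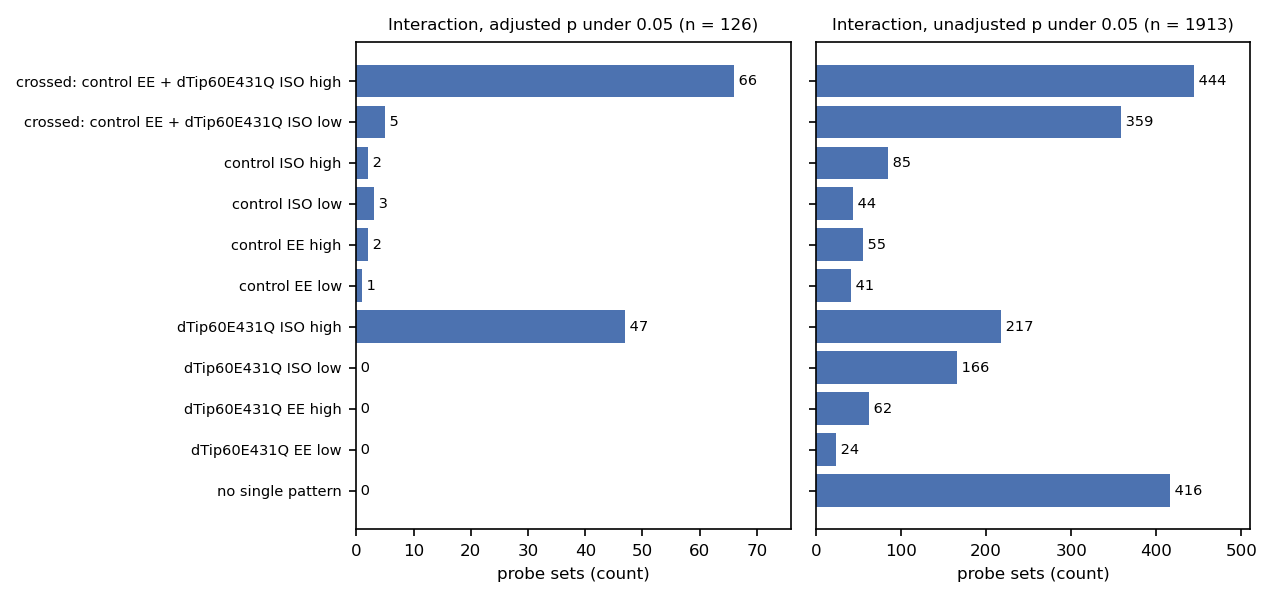
Number of probe sets (bars, counts) by the group or pair of groups that stood apart, for the 126 calls (left) and the 1913 probe sets at the unadjusted threshold (right). Calls fall on 2 shapes, with 66 and 47 probe sets, while the unadjusted set also holds 359 crossed low, 166 with dTip60E431Q ISO low and 416 with no single pattern.

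The unadjusted set had a wider mix of shapes. It held 803 crossed probe sets (444 with control EE and dTip60E431Q ISO high and 359 with them low) and 383 with dTip60E431Q ISO apart (217 high and 166 low). Control ISO stood apart in 129, control EE in 96 and dTip60E431Q EE in 86, and 416 met none of these descriptions. Over all probe sets tested, whether they interacted or not, dTip60E431Q ISO stood apart in 1730, against 813 for control EE, 580 for control ISO and 546 for dTip60E431Q EE. The dTip60E431Q ISO arrays were also the pair with the smallest difference, and the part of that spread in these counts was not tested.

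The crossed and the single-group shapes are separate in the plot of the housing responses. For the 66 crossed high calls the median EE minus ISO was 1.20 in control (range 0.38 to 4.86) and -1.26 in dTip60E431Q (-3.79 to -0.40). The opposite signs follow from the definition of the crossed shape. Probe sets with a single group apart were classed first, so the rule also limits how far the groups of a pair can differ. The largest, -8.30, belonged to a probe set for which the annotation used here gives no gene symbol. The median over these probe sets of dTip60E431Q ISO minus control EE was 0.13, and dTip60E431Q ISO was the higher of the high pair in 42 of 66. The low pair was similar, with a median of dTip60E431Q EE minus control ISO of 0.04. For the 47 calls with dTip60E431Q ISO high, the median EE minus ISO was 0.01 in control (-0.67 to 0.68) and -3.64 in dTip60E431Q (-8.50 to -0.85). The genotypes differed by a median of 0.00 in EE and 3.75 in ISO. This shape requires the other group means to lie closer together than the gap to dTip60E431Q ISO. The small differences among those groups are therefore partly set by the definition.

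**Figure D2:**
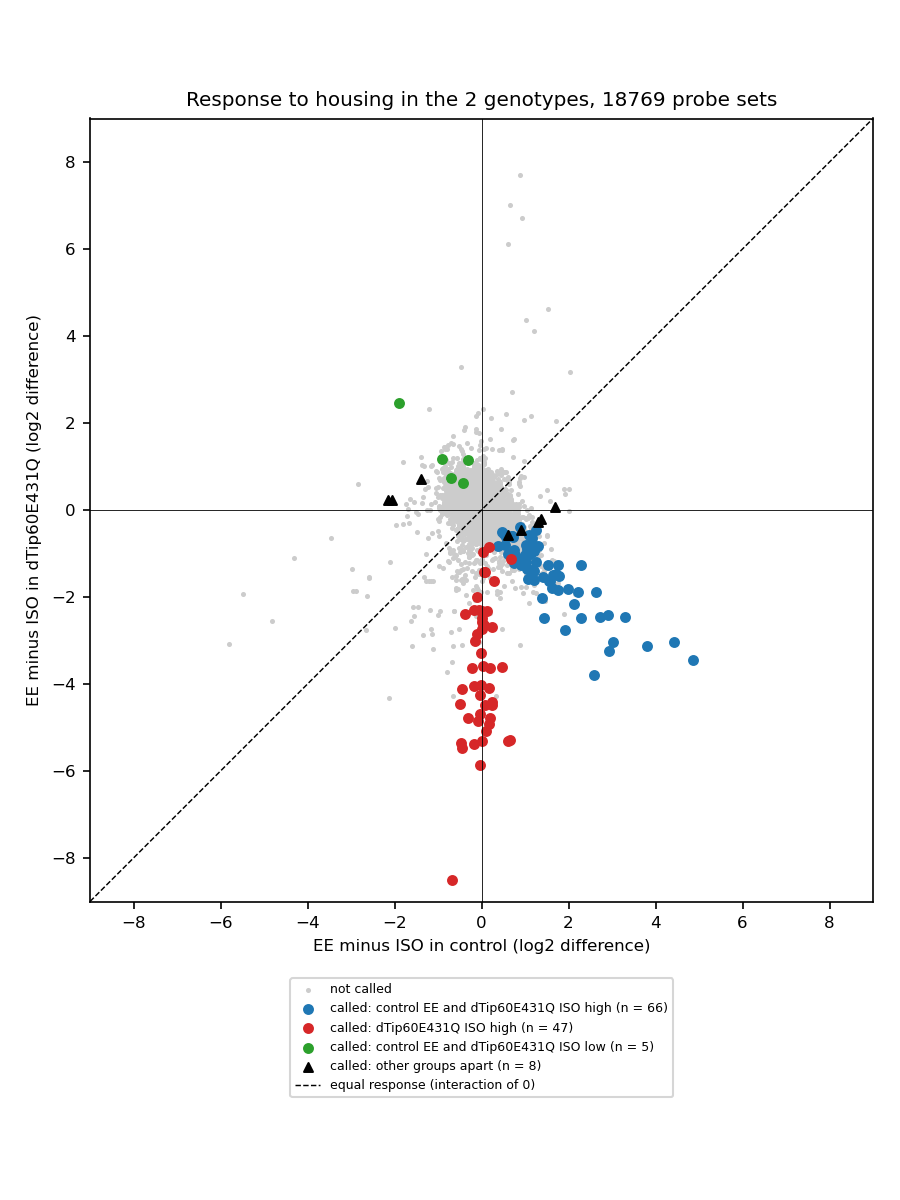
EE minus ISO in control (x axis, log2 difference) against EE minus ISO in dTip60E431Q (y axis, log2 difference) for 18769 probe sets, with calls coloured by shape and the dashed line where the responses are equal. Crossed calls lie to the lower right, with a median of 1.20 on the x axis and -1.26 on the y axis, and calls with dTip60E431Q ISO high lie along the vertical axis with medians of 0.01 and -3.64.

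Enzymes of glycine, sarcosine and methionine metabolism contributed 5 crossed calls, as many as the fat body list. This pathway moves methyl groups through S-adenosylmethionine and one-carbon units through folate. Of 17 genes measured, 6 fell below 0 by the test and none rose, against 0.91% called over all genes, and 11 of 17 were below 0 at the unadjusted threshold, against 10.3% of all genes in either direction. The list median was -1.81, with a median EE minus ISO of 0.68 in control and -1.13 in dTip60E431Q. Of the 11 genes, 10 had the crossed shape and 1, Nmdmc, had dTip60E431Q ISO apart.

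Gnmt, glycine N-methyltransferase, which uses up S-adenosylmethionine to make sarcosine, gave 5.52 and 5.40 in control ISO, 9.02 and 9.53 in control EE, 8.27 and 8.35 in dTip60E431Q ISO, and 4.88 and 5.47 in dTip60E431Q EE. The high and low arrays, which the crossed shape requires not to overlap, were 2.75 apart at their nearest. Its interaction was -6.95 ± 0.33 (SE, limma adjusted p = 3.61e-04), from 3.82 in control (adjusted p = 0.00575) and -3.14 in dTip60E431Q (adjusted p = 0.00195), so both responses passed the test by themselves. Sardh, sarcosine dehydrogenase, which returns sarcosine to glycine, gave 4.13 and 4.66 in control ISO, 7.40 and 6.81 in control EE, 7.45 and 7.38 in dTip60E431Q ISO, and 4.80 and 5.11 in dTip60E431Q EE, an interaction of -5.17 ± 0.35 (SE, limma adjusted p = 0.00144). Here too the absence of overlap between high and low arrays is part of the definition of the shape.

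CG3999, the glycine decarboxylase of the mitochondrial glycine cleavage system, had an interaction of -3.90 ± 0.28 (SE, limma adjusted p = 0.00163). CG10621, annotated as a homocysteine methyltransferase, had -5.76 ± 0.50 (limma adjusted p = 0.00419), and CG7560, a methylenetetrahydrofolate reductase, had -3.21 ± 0.48 (limma adjusted p = 0.0448). All were crossed. Of the members that did not pass, Shmt, which interconverts serine and glycine, stood at -2.60 (adjusted p = 0.0551), pug, a folate enzyme, at -3.04 (adjusted p = 0.0921) and CG6415, another part of the glycine cleavage system, at -2.70 (adjusted p = 0.0921). Shmt shows the difference from Gnmt: its arrays were 8.52 and 9.19 in control ISO and 8.54 and 9.30 in dTip60E431Q EE, a wider spread, against 9.97 and 9.90 in control EE and 10.49 and 10.39 in dTip60E431Q ISO.

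Crossed calls outside the lists included further enzymes, named here after their values were seen and not as a group that was tested. Tdh, threonine dehydrogenase, had an interaction of -2.18 (limma adjusted p = 0.00317), Bcat, the branched-chain aminotransferase, -3.29 (0.0355), Oat, ornithine aminotransferase, -2.65 (0.0376), and LKRSDH, the first enzyme of lysine breakdown, -1.81 (0.0101). Gart, an enzyme of purine synthesis, had -3.60 (0.0360), ry, xanthine dehydrogenase, -1.88 (0.0147), and su(r), which degrades pyrimidines, -2.05 (0.0251). For LKRSDH the arrays were 6.14 and 6.12, 7.30 and 7.28, 6.67 and 6.74, and 6.22 and 5.88, so that dTip60E431Q ISO lay between the low groups and control EE.

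Fat body genes contributed the same number of crossed calls. The fat body stores nutrients and secretes blood proteins, and part of it lies in the head against the brain. Of 16 fat body genes measured, 5 were called below 0 and none above, against 0.91% of all genes in either direction. At the unadjusted threshold 7 were below 0, against 809 of 11982 genes, and the list median was -0.79. Gnmt is a member of this list and of the one-carbon list. Lsp2, a storage protein, gave 7.56 and 7.65 in control ISO, 12.02 and 12.02 in control EE, 12.14 and 12.17 in dTip60E431Q ISO, and 8.47 and 9.77 in dTip60E431Q EE. Its interaction was -7.45 ± 0.51 (SE, limma adjusted p = 0.00144), and EE minus ISO passed the test in control (4.42, adjusted p = 0.0168) and in dTip60E431Q (-3.04, adjusted p = 0.0188). Its arrays lay close together in each group except dTip60E431Q EE, where they differed by 1.3.

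The yolk proteins Yp2 and Yp3, made by the female fat body and ovary, were called at -2.40 ± 0.32 (SE, limma adjusted p = 0.0289) and -3.20 ± 0.39 (limma adjusted p = 0.0210). The third yolk protein gene, Yp1, had -0.33 and was not called (adjusted p = 0.492), with arrays of 13.08 to 13.32. The female-biased secreted protein gene fit was called at -5.32 ± 0.66 (limma adjusted p = 0.0212), with arrays of 8.20 and 9.85 in control ISO and of 11.74 to 11.97 in both high groups. EE minus ISO of fit, Yp2 and Yp3 did not pass the test in either genotype by itself (adjusted p from 0.0946 to 0.43), although their interaction did. Of the 21 measured genes of sex determination and courtship, 4 were called (0.91% over all genes), namely these 3 and Obp99a, and all are secreted products rather than regulators. Of the regulators, dsx had -1.94 (limma adjusted p = 0.162), with control EE at 7.10 and 6.84 above the other 6 arrays. The 7 probe sets of fru were all below 0, from -1.20 to -0.35, and none was called. At the unadjusted threshold 6 of these 7 passed, against 5.19% of all probe sets below 0. The labels give no share of females for each pool, and its part in these values was not tested.

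Insulin signalling gave 2 calls among 14 measured genes, against 0.91% of all genes, and both were crossed. Of the other 12, none was called, and the list median was -0.23. Ilp5, an insulin-like peptide of the brain's insulin-producing cells, gave 10.16 and 10.14 in control ISO, 11.72 and 11 in control EE, 11.23 and 11.06 in dTip60E431Q ISO, and 9.87 and 9.19 in dTip60E431Q EE (-2.83 ± 0.41, limma adjusted p = 0.0393). The gene tobi, an alpha-glucosidase named as a target of brain insulin, gave 7.49 and 8.49, 10.98 and 11.02, 11.30 and 11.31, and 8.0 and 8.53 in the same order (-6.05 ± 0.45, limma adjusted p = 0.00188). Both were high in the same pair of groups. Ilp2, another peptide of those cells, stood at -1.21 and was not called (adjusted p = 0.327). Insulin-producing cells lie in the pars intercerebralis, where the driver is active, and fewer cells of a type and less RNA per cell cannot be told apart in these bulk samples.

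Obp99a, an odorant-binding protein, had one of the larger crossed interactions, -6.38 ± 0.38 (SE, limma adjusted p = 7.57e-04), with arrays of 8.29 and 7.93, 10.85 and 10.57, 10.99 and 11.04, and 6.82 and 7.64. It was the only one of 47 measured odorant-binding protein genes to be called, and the median of that list was 0.10. At the unadjusted threshold 6 members were above and 6 below 0, against 426 above and 809 below among 11982 genes. Single members of other families were crossed as well. Cyp309a1, a cytochrome P450, had -4.29 (limma adjusted p = 0.0124), Ugt37A3, a glycosyltransferase, -4.77 (0.00151), MtnD, a metallothionein, -2.56 (0.00412), ZnT77C, a zinc transporter, -1.71 (0.00317), and Sod3, an extracellular superoxide dismutase, -1.19 (0.0252). Of 81 P450 genes 2 were called, Cyp309a1 and Cyp4d1, and Cyp4d1 (-0.99) had dTip60E431Q ISO alone high. Of 5 metallothionein genes 1 was called, and over all genes the share was 0.91%. Kr-h1, a transcription factor that responds to juvenile hormone, was called at -1.83 ± 0.18 (limma adjusted p = 0.00686), with 8.85 and 8.84, 9.96 and 9.78, 9.54 and 9.47, and 8.58 and 8.82.

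**Figure D3:**
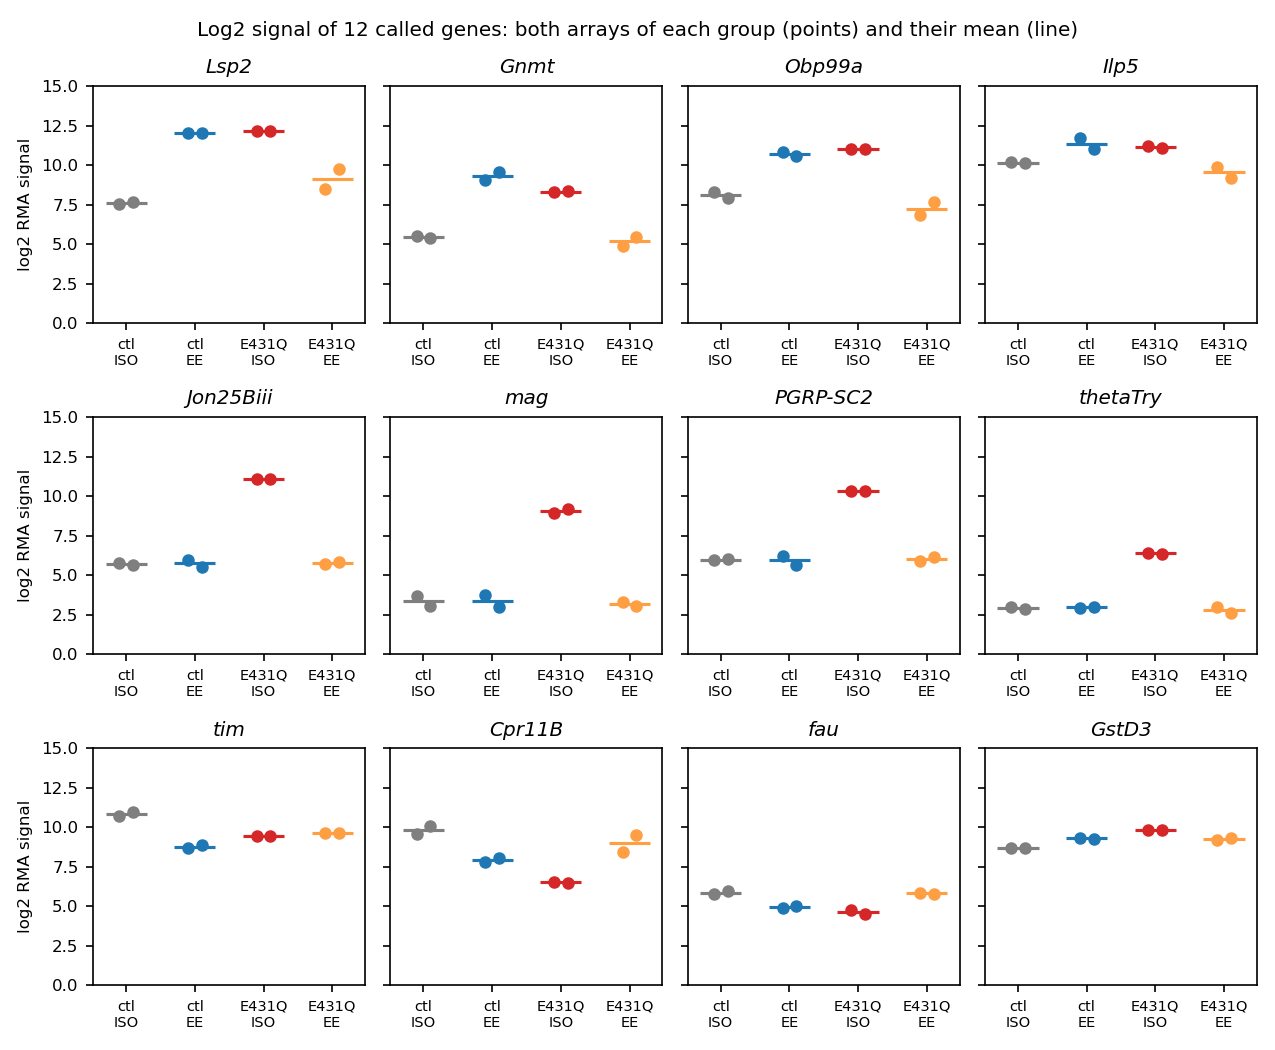
Log2 signal of 12 called genes in control (ctl) and dTip60E431Q (E431Q) flies after ISO or EE, with both arrays of each group as points and their mean as a line. The top row is crossed (Lsp2 near 12 in control EE and dTip60E431Q ISO), the middle row is high in dTip60E431Q ISO alone (Jon25Biii at 11.10 and 11.07 against at most 5.93), and the bottom row shows rarer shapes.

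The 47 probe sets with dTip60E431Q ISO alone high matched 44 genes, and 11 of these were in the lists of midgut genes. Digestive serine proteases of the Jonah family were the largest group. Of 13 Jonah genes measured, 7 were called below 0, against 0.91% of all genes in either direction. At the unadjusted threshold 10 were below 0, against 809 of 11982 genes, and all 10 had dTip60E431Q ISO alone high. The list median was -1.58, made up of 0.06 for EE minus ISO in control and -2.73 in dTip60E431Q. The mean log2 signal over the family was 8.26 and 8.25 in the arrays of dTip60E431Q ISO and between 4.35 and 5.25 in the other 6.

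Jon25Biii gave 5.79 and 5.65 in control ISO, 5.93 and 5.53 in control EE, 11.10 and 11.07 in dTip60E431Q ISO, and 5.72 and 5.85 in dTip60E431Q EE, an interaction of -5.31 ± 0.21 (SE, limma adjusted p = 2.60e-04). Its other 6 arrays covered a range of 0.39 and lay below the array medians. Jon99Fi had the largest interaction of the family, -7.83 ± 0.92 (limma adjusted p = 0.0171), with 12.22 and 12.07 in dTip60E431Q ISO against 3.15 to 5.48. Jon65Ai, Jon65Aii and Jon44E lay between -4.97 and -4.65 (limma adjusted p = 4.70e-04 for each), and Jon66Ci and Jon66Cii were smaller, at -1.5 and -1.02. Jonah genes are similar in sequence, and probe sets of near-identical members may share signal, so that the number of family members that changed is uncertain.

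Other enzymes and secreted proteins of the gut had the same shape. The trypsin gene thetaTry gave 6.40 and 6.35 in dTip60E431Q ISO and 2.61 to 3.0 in the other arrays (-3.63 ± 0.20, limma adjusted p = 5.01e-04), and it was the only one of 10 trypsins to be called, with 5 of 10 below 0 at the unadjusted threshold. The lipase gene mag gave 8.92 and 9.15 against 3.0 to 3.71 (-5.83 ± 0.40, limma adjusted p = 0.00145). Mal-A2, a maltase, gave 4.45 and 4.45 against 2.89 to 3.05 (-1.51 ± 0.14, limma adjusted p = 0.00557), so it stood below the array medians in all groups. Of 32 midgut genes other than proteases, 4 were called below 0, including the crossed tobi, and 12 were below 0 at the unadjusted threshold. Over all genes 0.91% were called in either direction, and 809 of 11982 were below 0 at the unadjusted threshold.

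PGRP-SC2, an amidase that degrades bacterial peptidoglycan, gave 10.30 and 10.30 in dTip60E431Q ISO and 5.65 to 6.22 in the other arrays (-4.23 ± 0.27, limma adjusted p = 0.00112). It was the only call among 13 immune effector genes, against 0.91% of all genes. At the unadjusted threshold 6 of the 13 were below 0, against 809 of 11982 genes, and the list median was -0.69. Peritrophin-15a, of the matrix that lines the gut, had -2.45 (limma adjusted p = 0.0212), Acbp5, an acyl-CoA binding protein, -4.77 (0.0210), and Ser6, a serine protease, -2.12 (0.0376). Nmdmc, a mitochondrial folate enzyme, was the one called gene of this shape at which the other 6 arrays were not all below the array medians, with 8.13 and 8.19 in dTip60E431Q ISO and 6.49 to 7.52 elsewhere (-1.81 ± 0.25, limma adjusted p = 0.0355). For 46 of the 47 probe sets the other 6 arrays were all below them, and for 12 of 47 the dTip60E431Q ISO arrays were too.

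Of the 44 genes, 26 are known only by a CG number. Among them CG18493, CG10472, CG42397 and CG31233 had interactions of -5.18, -5.09, -5.04 and -4.02, all at a limma adjusted p of 2.60e-04. By gene order, 17 of the 44 lay within 3 genes of another gene called with this shape, among them Jon65Ai beside Jon65Aii and Jon66Ci beside Jon66Cii, against 6 of the 59 crossed high genes. Neighbours of that kind include members of one family. No share over all measured genes was computed, so these counts are a description only.

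The other shapes held 13 calls. The clock gene tim, whose protein pairs with that of per in the negative arm of the circadian clock, had control ISO alone high in both its probe sets. The brighter gave 10.70 and 10.94 in control ISO, 8.68 and 8.83 in control EE, 9.40 and 9.41 in dTip60E431Q ISO, and 9.63 and 9.65 in dTip60E431Q EE (2.30 ± 0.17, limma adjusted p = 0.00188), and the dimmer had 2.37 ± 0.22 (limma adjusted p = 0.00554). In control flies tim fell by 2.06 from ISO to EE (adjusted p = 0.00575), whereas EE minus ISO was 0.23 in dTip60E431Q (adjusted p = 0.696). None of the other 23 clock genes was called, against 0.91% of all genes. The values of vri, per and Clk were 1.89 (adjusted p = 0.0975), 0.68 (0.179) and -0.63 (0.285), with per highest and Clk lowest in control ISO, and the median of the clock list was 0.01.

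The 5 crossed calls in the opposite direction matched 4 genes. Cpr11B, a chitin-binding cuticle protein, gave 9.57 and 10.05 in control ISO and 7.80 and 8.02 in control EE. In dTip60E431Q it gave 6.54 and 6.45 in ISO and 8.42 and 9.50 in EE (4.37 ± 0.48, limma adjusted p = 0.0132). It was the only one of 66 cuticle protein genes to be called, against 0.91% of all genes. The gene fau, known to be induced by lack of oxygen, gave 5.79 and 5.92, 4.89 and 5.01, 4.73 and 4.52, and 5.83 and 5.76 (2.08 ± 0.17, limma adjusted p = 0.00317), although its 5 probe sets ranged from 0.32 to 2.08 and only 1 was called. The others were f, an actin-bundling protein of bristles, and CG14598, at 1.45 and 1.44. The other probe set of f stood at -0.09, and f and fau lost the call when the probe sets of a gene were averaged. In all of these except Cpr11B the arrays were below the array medians.

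Control EE alone was low for Strn-Mlck, a giant muscle protein and kinase, at 4.43 and 4.49 against 5.11 to 6.29 (2.12 ± 0.30, limma adjusted p = 0.0374). Its 3 probe sets ranged from 0.10 to 2.12 with 1 called, and their average was not called. For the called probe set all 8 arrays were below the array medians. Control EE was alone high for CG9377, at 9.43 and 9.64 against 7.01 to 8.26 (-1.57 ± 0.21, limma adjusted p = 0.0337). Control ISO alone was low for GstD3, a glutathione S-transferase, at 8.68 and 8.67 against 9.17 to 9.83 (-1.17 ± 0.15, limma adjusted p = 0.0234), and for CG10514 (-1.35) and CG4259 (-1.58). For CG9377 dTip60E431Q minus control was -2.34 in EE (limma adjusted p = 0.00611) and -0.77 in ISO (adjusted p = 0.101).

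Some of the largest interactions above 0 were not called. CG3088, CG8343 and CG11211 were very low in dTip60E431Q ISO alone, as CG8343 shows with 10.13 and 12.64 in control ISO, 12.16 and 11.92 in control EE, 4.80 and 4.94 in dTip60E431Q ISO, and 11.55 and 12.20 in dTip60E431Q EE. Their interactions were 6.81, 6.35 and 5.5 with adjusted p of 0.104, 0.0556 and 0.0934, and the arrays of control ISO differed from each other by at least 2.5 in each of them. No probe set with dTip60E431Q EE alone apart was called, but the activity-regulated genes sr and Hr38 had that shape. The transcription factor gene sr gave 9.61 and 9.37 in dTip60E431Q EE against 8.08 to 8.65 (0.80, adjusted p = 0.213), and the brighter probe set of the nuclear receptor gene Hr38 gave 8.19 and 7.73 against 7.03 to 7.43 (0.85, adjusted p = 0.289). The other probe set of Hr38 had 1.17 and was not called either. Of 16 activity-regulated genes none was called, and 4 passed the unadjusted threshold above 0, against 426 of 11982 genes. The median was 0.29, with 12 values positive, against 47.8% of all genes.

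Lists of neuronal genes gave no calls. The medians were 0.13 for 20 genes of mushroom body identity, 0.08 for 33 learning and memory genes and 0.13 for 15 pan-neuronal genes. At the unadjusted threshold the learning and memory list had 1 gene above and 1 below 0 and the other lists had none, against 10.3% of all genes. No call was made either among 13 genes of the Tip60 complex, 41 cytoplasmic ribosomal protein genes, 74 genes of oxidative phosphorylation or 165 odorant and gustatory receptor genes, whose medians lay between -0.08 and 0.08. A missed call does not show that these genes responded alike in the genotypes, since few arrays limit the precision.

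**Figure D4:**
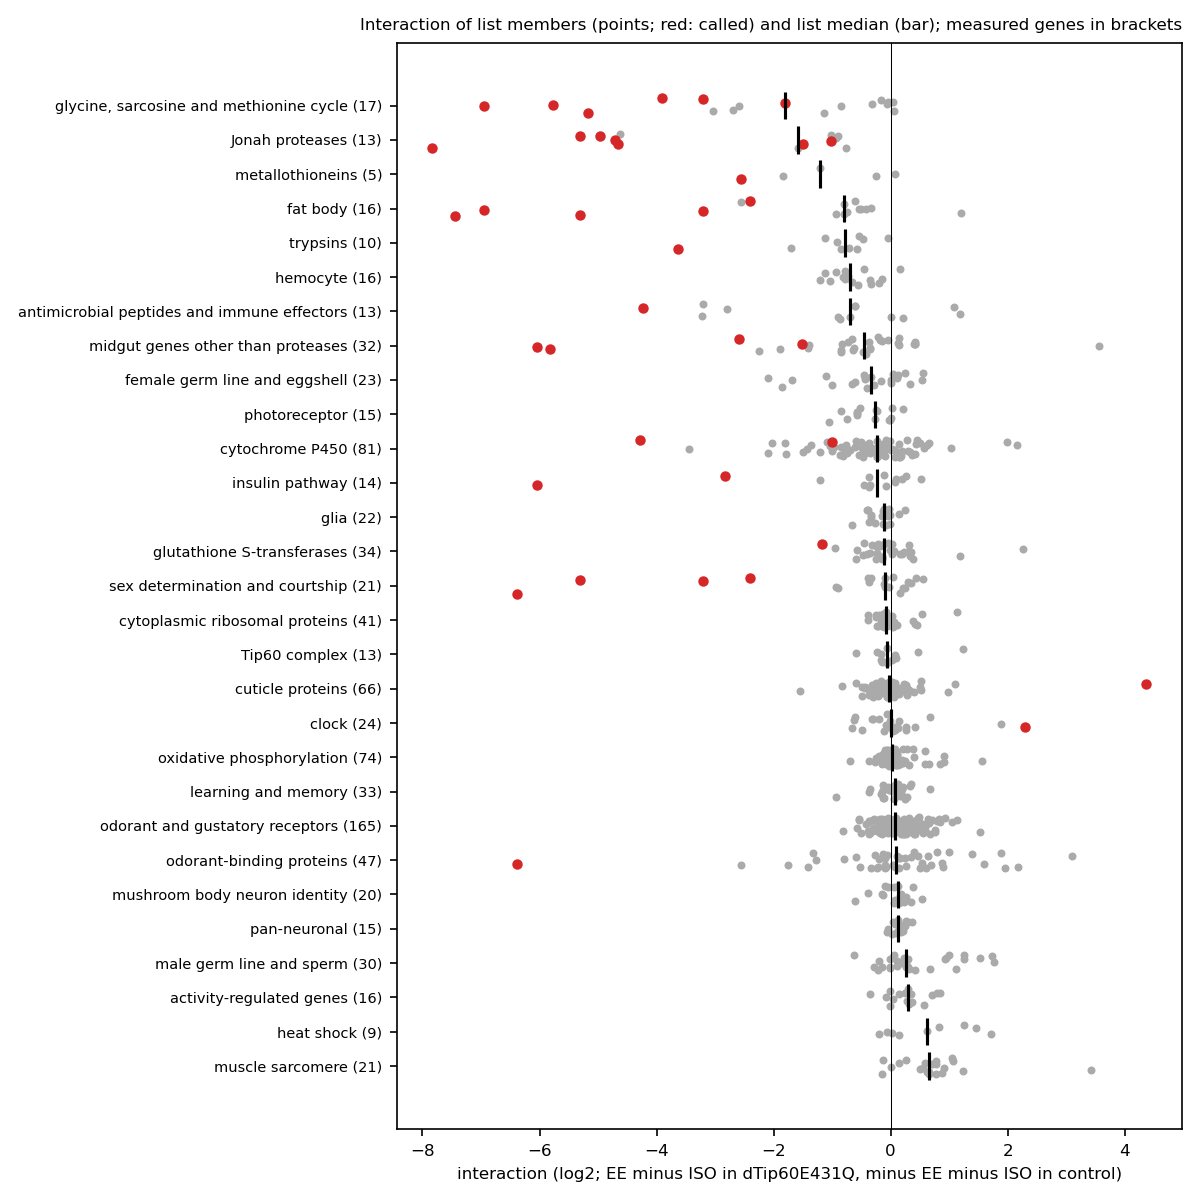
Interaction (x axis, log2) of the measured members of 29 gene lists, 1 probe set per gene, with called genes in red, the list median as a bar and the number of measured genes in brackets. Lists at the top, such as the one-carbon list (median -1.81) and Jonah proteases (-1.58), hold many called members, and neuronal lists lie near 0.

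The mean levels of several marker lists differed between the groups. Over the fat body list the mean log2 signal was 8.71 and 9.19 in control ISO and 10.05 and 10.11 in control EE. It was 10.12 and 10.13 in dTip60E431Q ISO and 8.98 and 9.49 in dTip60E431Q EE, which is the crossed order. The interactions of 15 of 16 members were below 0, whereas 47.8% of all genes were above 0. The hemocyte list had a median of -0.70, no call and array means from 7.52 to 8.23. At the unadjusted threshold 7 of its 16 genes were below 0, against 809 of 11982 genes. Over the list of midgut genes other than proteases the mean was 5.63 and 5.68 in dTip60E431Q ISO and 4.67 to 5.07 elsewhere. The part of fat body, hemocyte or gut tissue carried along in the sort was not tested. Of 22 glial genes 20 lay below 0, with a median of -0.12, whereas 47.8% of all genes lay above 0. None was called and 1 passed the unadjusted threshold, against 10.3% of all genes in either direction. The array means of the glial list were 9.59 and 9.57 in dTip60E431Q ISO and 9.37 to 9.48 elsewhere. The photoreceptor list, with no gene at the unadjusted threshold and a median of -0.27 over 15 genes, was also highest in dTip60E431Q ISO, at 11.03 and 11.01, and lowest in replicate 1 of control ISO and of control EE, at 10.01 and 9.95. Its median dTip60E431Q minus control was 0.98 in ISO and 0.33 in EE, and its part in the interacting genes was not tested.

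The muscle sarcomere and heat shock lists gave no calls, and their medians were above 0. The called muscle gene Strn-Mlck was in neither list. Of 21 sarcomere genes 19 lay above 0, against 47.8% of all genes, and 4 were above 0 at the unadjusted threshold, against 426 of 11982. The list median was 0.66, and the array means were 9.78 and 10.03, 9.43 and 9.69, 9.58 and 9.58, and 9.55 and 10.37. That median ranged from 0.16 to 1.17 when arrays were left out in turn. None of the 9 heat shock genes passed the unadjusted threshold. Their median was 0.63, and their mean signal was 11.88 in control ISO replicate 2 and 11.09 in dTip60E431Q EE replicate 2 against 10.10 to 10.59 in the other arrays. Leaving out arrays moved it from -0.20 to 1.70.

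**Figure D5:**
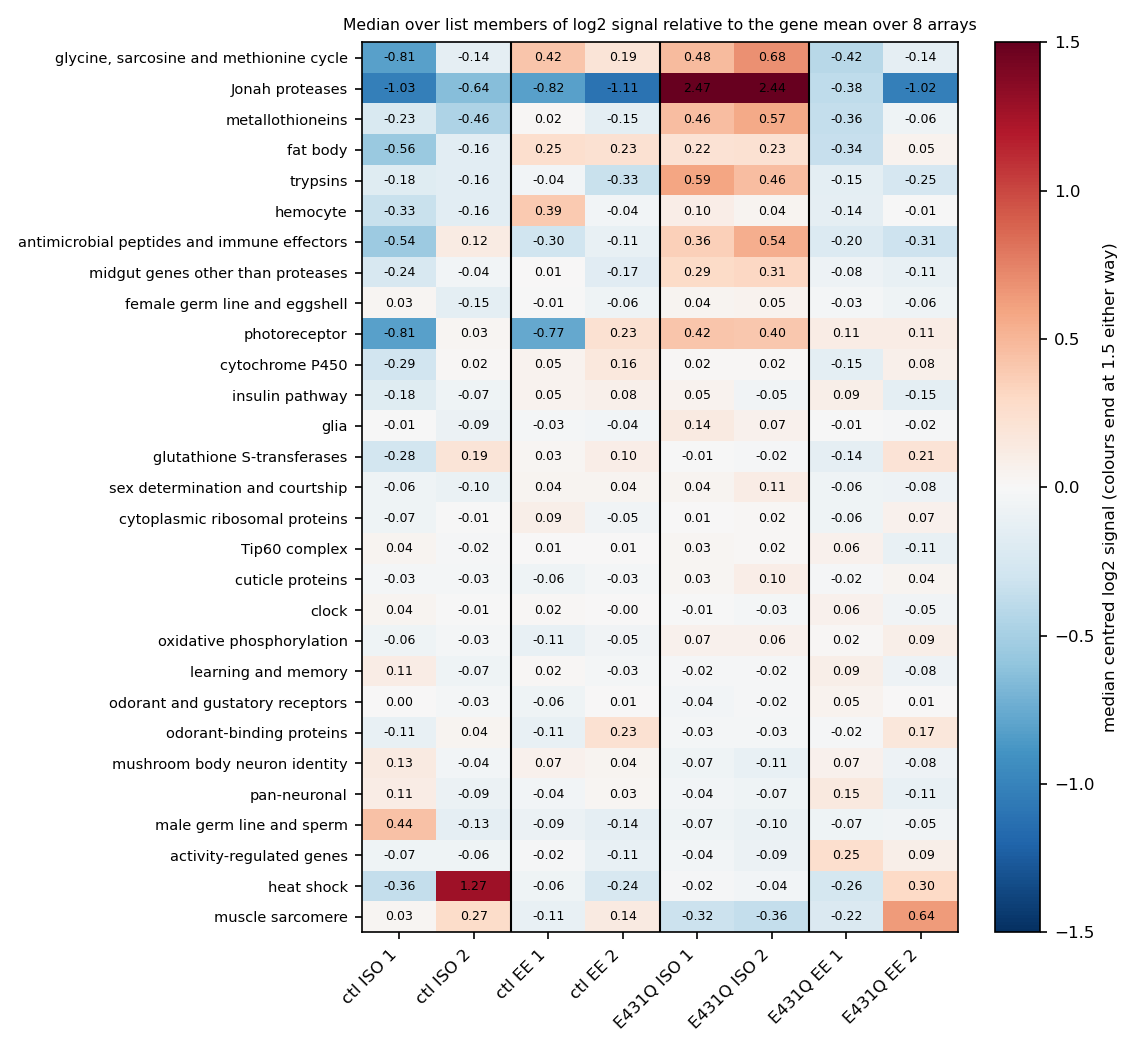
Median over the members of each list of the log2 signal relative to the gene's mean over 8 arrays, for control (ctl) and dTip60E431Q (E431Q) arrays in columns, with colours ending at 1.5 in either direction. The Jonah row reaches 2.47 and 2.44 in dTip60E431Q ISO, and the heat shock row is high in control ISO replicate 2 (1.27).

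Single arrays changed both the number of calls and their balance of signs. Without control ISO replicate 2 there were 638 calls, 284 above and 354 below 0 (44.5% above, against 6.35% with all arrays), and these included all 126. In that fit control ISO alone was high in 156 calls and alone low in 49. Without control EE replicate 1 or 2 there were 60 and 66, and without either array of dTip60E431Q ISO there were 44. Calls above 0 numbered 25 without control ISO replicate 1 and 23, or 25% of 92, without dTip60E431Q EE replicate 1. A total of 43 calls passed whichever of the 8 arrays was left out, 17 of them crossed with control EE and dTip60E431Q ISO high and 24 with dTip60E431Q ISO high. They included Gnmt, Sardh, CG3999, CG10621, Lsp2, Obp99a, tobi and MtnD in the first shape, and Jon25Biii, Jon44E, Jon65Ai, Jon65Aii, mag, thetaTry and PGRP-SC2 in the second. Outside these shapes fau and 1 probe set of tim passed. Ilp5, fit, Yp3, Jon99Fi, Cpr11B and Strn-Mlck each failed without at least 4 of the arrays. With the arrays of dTip60E431Q ISO averaged and counted as 1 sample there were 45 calls.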

How the data were processed

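Total RNA of sorted GFP-positive cells was hybridised to Affymetrix 3′ expression arrays, 2 per group. The authors normalised the arrays with RMA in R (background correction, quantile normalisation and summary per probe set) and deposited log2 values, which were used without further scaling. No version of RMA was stated. Of 18952 probe sets, 183 Affymetrix controls were left out. By the platform annotation 13647 of the rest had 1 gene symbol, 402 several and 4720 none. Gene order was taken from the RefSeq gene table.

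A model with a mean for each group and a spread shared by all 8 arrays was fitted in R 4.3.3 with limma 3.58.1 (4 residual and 2.91 prior degrees of freedom) and moderated statistics were adjusted by Benjamini-Hochberg. The steps were tested on simulated data. A list used for each gene the probe set of highest mean signal, and single genes are given by the probe set with the largest interaction, or by the brightest where they were named from a list, as stated for genes with several. The number of arrays limits the precision.

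The interaction, the gene lists and the tests were chosen with earlier results of these data known. Genes to name were the 15 largest called in each direction, filled by the smallest p where fewer passed, the 5 of smallest p in each shape and 3 in each of 29 lists, and the genes the paper names. The text leaves out many named by that rule, and adds called genes of known function, all chosen after their values were seen. Alternatives were cyclic loess, a repeated quantile normalisation, array weights, robust moderation with a mean-variance trend, and the replicate number as a block. Others were removal of dim probe sets (mean signal under 6.46, the median over probe sets), and 1 probe set or the mean of probe sets per gene. The rest were an unmoderated t-test with the spread pooled over the groups, the dTip60E431Q ISO arrays averaged, a fold of 1.1, a gap of 0.5 times the range, and each array left out. The paper's other experiments were not analysed here.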

Additional observations from a re-analysis of the deposited data

Results flagged for a closer look

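Each of 41 named genes below had a housing response that differed between the genotypes by the interaction test (limma, adjusted over all probe sets), and the values are the interaction on the log2 scale. Crossed genes with control EE and dTip60E431Q ISO high were Lsp2 (-7.45), Gnmt (-6.95), Obp99a (-6.38), CG11741 (-6.17), tobi (-6.05), CG10621 (-5.76), fit (-5.32), Sardh (-5.17), CG43085 (-4.53), Cyp309a1 (-4.29), CG3999 (-3.90), CG7763 (-3.41), Yp3 (-3.20), Ilp5 (-2.83) and MtnD (-2.56). Genes with dTip60E431Q ISO alone high were Jon99Fi (-7.83), CG18180 (-5.95), CG8560 (-5.92), mag (-5.83), Jon25Biii (-5.31), CG31198 (-5.19), CG18493 (-5.18), CG10472 (-5.09), CG42397 (-5.04), Jon65Ai (-4.97), Jon65Aii (-4.71), PGRP-SC2 (-4.23), CG31233 (-4.02), thetaTry (-3.63), CG6283 (-2.59) and Cyp4d1 (-0.99).

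Control ISO was apart in tim (2.37), CG4259 (-1.58), CG10514 (-1.35) and GstD3 (-1.17), and control EE in Strn-Mlck (2.12) and CG9377 (-1.57). The crossed genes with control EE and dTip60E431Q ISO low were Cpr11B (4.37), fau (2.08), f (1.45) and CG14598 (1.44). These calls were not equally stable. With cyclic loess CG4259, CG14598, f, Cyp4d1 and Strn-Mlck lost the call. In the unmoderated t-test only Jon25Biii, CG18493, CG43085, CG7763, CG42397, CG10472 and CG31233 of the genes named in this section kept it. A direct test of outlying arrays needs at least 4 arrays in a group and was not made here.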

How the results depend on the processing

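Against 126 calls (8 above 0 and 118 below) and 1913 probe sets at the unadjusted threshold (939 above and 974 below), leaving out dim probe sets gave 46 calls (3 and 43) and 925 unadjusted (345 and 580), with fewer probe sets tested. With the dTip60E431Q ISO arrays averaged there were 45 calls (2 and 43) and 1148 unadjusted (516 and 632). An unmoderated t-test of the interaction, with the spread pooled over the groups, gave 16 after adjustment (1 and 15) and 1218 before it (529 above 0). In it Gnmt, Sardh, CG3999, CG10621, Lsp2, Obp99a, tobi, MtnD, mag, thetaTry, PGRP-SC2, Jon65Ai and Jon65Aii lost the call, while Jon25Biii kept it. One probe set per gene gave 3 calls above 0 and 1224 unadjusted (415 above), and probe sets averaged per gene 3 and 1235 (426 above), with fewer tests. Array weights gave 14 calls above 0. With the replicate number as a block there were 138 calls (13 above 0 and 125 below), of which 111 were among the 126, and 2182 unadjusted. Deviations of replicates from group means correlated between -0.086 and 0.312 over the 6 pairs of groups. Those above 0.1 were 0.312 for control ISO with control EE and 0.263 for control ISO with dTip60E431Q EE. Whether arrays of the same replicate number were handled together was not tested.

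Leaving out each array in turn gave 44 to 638 calls, 2 to 284 above 0 and 42 to 354 below, and 1269 to 3554 unadjusted, 586 to 2132 above and 665 to 1422 below. By shape, crossed high calls ranged from 17 to 216, crossed low from 1 to 113 and dTip60E431Q ISO high from 25 to 67. Calls with control ISO high ranged from 1 to 156 and low from 0 to 49, both highest without control ISO replicate 2, and there were up to 9 with dTip60E431Q ISO low and up to 6 with dTip60E431Q EE high, shapes that had no call with all arrays. Without dim probe sets there were 36 crossed high, 1 crossed low and 4 dTip60E431Q ISO high calls, against 66, 5 and 47 with all probe sets. Crossed low calls numbered 2 with a gap of 0.5 times the range and 2 with 1 probe set per gene. The dimmer probe set of tim (2.37) lost its call without either array of dTip60E431Q ISO.

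The interactions of 95 named genes, 41 of them called, were recomputed, and a gene counts once for each alternative in which it was recomputed. Of these comparisons 1456 kept their sign and side of the threshold, 159 lost the call, 34 gained it and 1 lost its sign. The last was Pka-R1, which was not called and went from -0.09 to 0 when its probe sets were averaged. Only the 41 called genes could lose a call, so the 1456 include uncalled genes that stayed uncalled. The causes of these changes were not tested. Cyclic loess and a repeated quantile normalisation gave 104 and 107 calls, of which 95 and 103 were among the 126. Signal near background limits the second shape most, since most of its probe sets were below the array medians in 3 of the groups.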

Other observations

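The immune peptide genes Def and DptB had their highest arrays in dTip60E431Q ISO and were not called. Def gave 5.84 and 8.15 in control ISO, 6.94 and 8.01 in control EE, 8.96 and 9.07 in dTip60E431Q ISO, and 6.48 and 6.09 in dTip60E431Q EE (interaction -3.21, limma adjusted p = 0.319). DptB had -3.23 (limma adjusted p = 0.228), with 6.63 and 6.90 in dTip60E431Q ISO.

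TpnC4, a troponin of flight muscle, was at 3.06 and 3.56 in control EE and at 5.79 to 7.76 in the other arrays (interaction 3.42, limma adjusted p = 0.185). InR, the insulin receptor, was highest in dTip60E431Q EE, at 7.75 and 7.71 against 7.03 to 7.26 (0.53, limma adjusted p = 0.313).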
